A study of Homo sapiens with 40 samples.

Results

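RNA labelled near the nuclear lamina was compared with RNA labelled in the cytosol of HEK293T cells, a human embryonic kidney line. The comparison used 8 of the 40 libraries of the series. They were 2 enriched and 2 input libraries of the LMNB1 construct, which carries the peroxidase APEX2 to the nuclear lamina with lamin B1, and 2 enriched and 2 input libraries of the NES construct, which holds APEX2 in the cytosol through a nuclear export signal. Cells of all 4 groups, inputs included, were exposed to 6-thioguanosine (s6G, 100 µM) over 5 h. Biotin-phenol (0.5 mM) was present in the final 30 min, and the peroxidase was then started with hydrogen peroxide (1 mM) for 1 min. Whether the lines are clones or pools is not given in the sources used here. The members were chosen by title. Each gene's enrichment (enriched over input) in the LMNB1 construct was set against its enrichment in the NES construct, so a positive log2 difference means more enrichment at the lamina. Values from the LMNB1 APEX-only arm (no thionucleoside), the LMNB1 unlabelled arm (neither thionucleoside nor biotin-phenol) and the ERM construct with s6G (endoplasmic reticulum membrane) are set beside the results. The NES construct has no APEX-only and no unlabelled arm. The part of bead background in the difference between the constructs could therefore not be tested.

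Lamins form a meshwork under the inner nuclear membrane, where they bind chromatin and hold nuclear pore complexes in place. APEX2 turns biotin-phenol into a short-lived radical that biotinylates molecules close to it. The nucleoside s6G is built into RNA made while it is present and is rich in electrons, so RNA captured on streptavidin depends both on where it is and on when it was made. Processed mRNA leaves the nucleus through the pores, whereas some polyadenylated transcripts keep introns that are spliced slowly and stay in the nucleus until they are spliced or broken down. The libraries were selected for poly(A) RNA, so they hold mainly transcripts with a tail.

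Total counts were 7258396 and 8560346 in the enriched LMNB1 libraries and 4254316 and 5153997 in their inputs, and 8229934 and 7761433 in the enriched NES libraries and 5415679 and 5647513 in their inputs. LMNB1 itself (ENSG00000113368), the gene of lamin B1, stood at 4090 to 6728 CPM (counts scaled to the library total) in these 4 LMNB1 libraries and at 77.8 to 340 CPM in the 28 libraries of the other constructs. Gene counts do not tell the construct's transcript from the cell's own, and the enrichment of LMNB1 did not pass the test for a difference (0.19 ± 0.33, edgeR adjusted p = 0.69). One label of the 4 LMNB1 libraries conflicts with the rest: s4U stands in their characteristics, and s6G in the titles by which they were grouped and in the design text. The stress-induced gene ATF3, chosen after its values were seen, had 190 and 166 CPM in these LMNB1 inputs, against 268 and 248 CPM in MITO inputs with s6G and 37.0 and 54.2 CPM in MITO inputs with s4U. Of 21 markers of blood, liver, muscle, epithelial and other cells, 5 passed the expression filter.

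Between the constructs, 2572 genes were enriched more at the lamina and 3066 less (edgeR quasi-likelihood test, adjusted p under 0.05), which is 16.5% and 19.6% of the 15632 tested genes and 36.1% in all. With the replicate number as a block, which pairs each enriched library with its own input, 4019 were higher and 4567 lower. Set against input within each construct, 2366 genes were higher and 3025 lower at the lamina (34.5% in all; 4026 and 4622 with the block), and 3909 were higher and 3969 lower in the cytosol (50.4%). The split at the lamina depended on scaling, with 4382 higher and 1758 lower under total counts (71.4% of calls higher in place of 43.9%, median of all genes 0.35) and 2442 and 1987 in the fit of 24 libraries. Inputs of LMNB1 and NES differed in 194 genes (142 higher and 52 lower in LMNB1 inputs, 1.24%), and 92 of the 5638 called differences were among them. All 2572 and all 3066 called genes had enrichments in both LMNB1 pairs above, or below, those of both NES pairs. This separation is read from the same 8 libraries as the calls, so it adds no support to them. Scaled by total counts in place of the trimmed mean (TMM), the split was 3464 higher and 2367 lower, with 59.4% of calls higher in place of 45.6%, and the median of all genes lay at 0.23 in place of -0.02.

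Higher genes were of several kinds. Of the 2572, 1041 fell in the cytosol without a call at the lamina, 696 rose at the lamina without a call in the cytosol, and 486 did both. Most lower genes moved in the cytosol. Of 3066, 1861 rose there without a call at the lamina, 490 fell at the lamina without a call in the cytosol, and 420 did both. All these counts are from the TMM fit. They rest on the lamina calls, whose split depended on scaling, and were not made under total counts. In the plot of both enrichments, 2 gene lists lie on opposite sides of the diagonal. Most detained-intron and speckle mRNAs lie below it, with medians of 1.01 at the lamina and -0.62 in the cytosol. The genes known to lack introns (in the coding region), listed after the values were seen, lie above it. Their medians were -0.19 at the lamina and 2.13 in the cytosol.

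**Figure D1:**
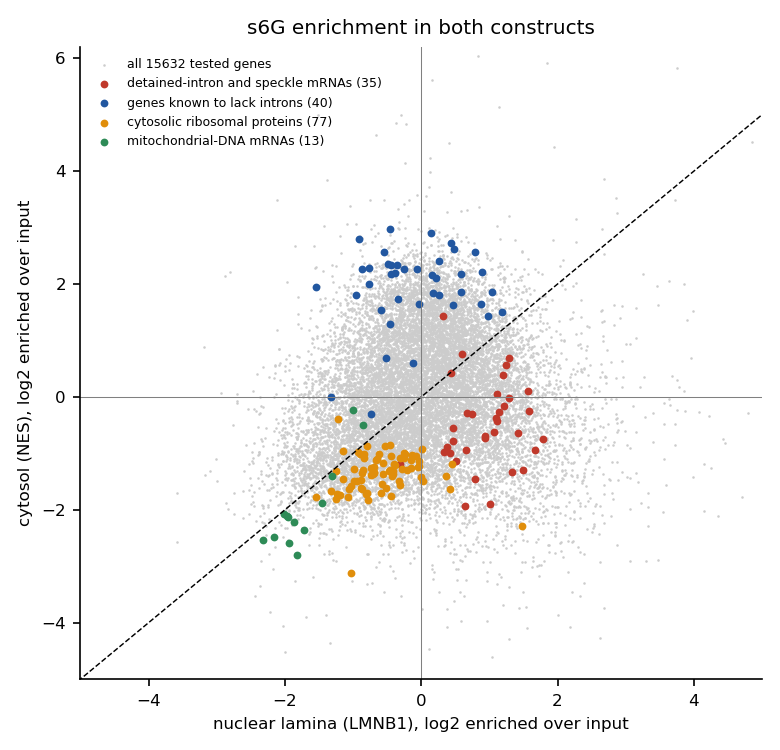
Each point is 1 of the 15632 tested genes, with its log2 enrichment over input at the nuclear lamina on the x axis and in the cytosol on the y axis. The 35 detained-intron and speckle mRNAs lie mostly below the dashed line of equal enrichment and the 40 genes known to lack introns above it, while the 13 mitochondrial mRNAs lie at the lower left in both constructs.

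Transcripts known for detained introns or for sitting in nuclear speckles, bodies that store splicing factors, were more enriched at the lamina. Of 37 listed genes 35 were tested, and 28 were higher and 1 lower, with a median difference of 1.41 against -0.02 over all tested genes. At the lamina 26 of the 35 rose and none fell (15.1% of all genes rose there), and in the cytosol 4 rose and 18 fell (25.4% of all genes fell there). The list's median enrichment was 0.96 and 1.04 in the LMNB1 pairs and -0.54 and -0.60 in the NES pairs, and its summed level was 21163 and 17271 CPM in enriched LMNB1 libraries against 12033 and 9988 CPM in their inputs, and 10458 and 9307 CPM in enriched NES libraries against 13731 and 12617 CPM in their inputs. The 3 genes with the largest difference were CCNL2, CCNL1 and DDX17.

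CCNL1 (chromosome 3, 157143121 to 157160147), a cyclin that takes part in splicing, had 639 and 692 CPM (TMM-scaled, as are all CPM of single genes from here on) in enriched LMNB1 libraries against 253 and 219 CPM in their inputs. In the NES construct it had 122 and 86.6 CPM in enriched libraries against 268 and 242 CPM in inputs. The inputs of both constructs overlapped, and the enriched libraries lay far apart on either side of them. The difference was 2.79 ± 0.27 (SE, n = 2 per group, edgeR adjusted p = 4.4e-05). CCNL2, the related cyclin L2, had 553 and 399 CPM against 263 and 210 CPM for LMNB1, and 98.9 and 75.2 CPM against 354 and 299 CPM for NES, a difference of 2.92 ± 0.30. DDX17, an RNA helicase, had 2114 and 1536 CPM against 879 and 578 CPM for LMNB1, and 500 and 465 CPM against 1188 and 1240 CPM for NES, a difference of 2.66 ± 0.33. In each of these genes the enriched LMNB1 libraries were the highest and the enriched NES libraries the lowest of the 4 groups.

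Other members, chosen after their values were seen, differed less or went the other way. CLK1, a kinase of splicing factors, rose at the lamina (1.57) and lay at -0.25 in the cytosol, where it did not pass the test. SON, which codes for a scaffold protein of speckles, was the 1 lower member (-1.12 ± 0.25, edgeR adjusted p = 0.0043). It had 737 and 715 CPM in enriched LMNB1 libraries against 623 and 539 CPM in inputs, and 1671 and 1521 CPM in enriched NES libraries against 615 and 564 CPM in inputs, so that the cytosol gave the larger part of its difference.

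**Figure D2:**
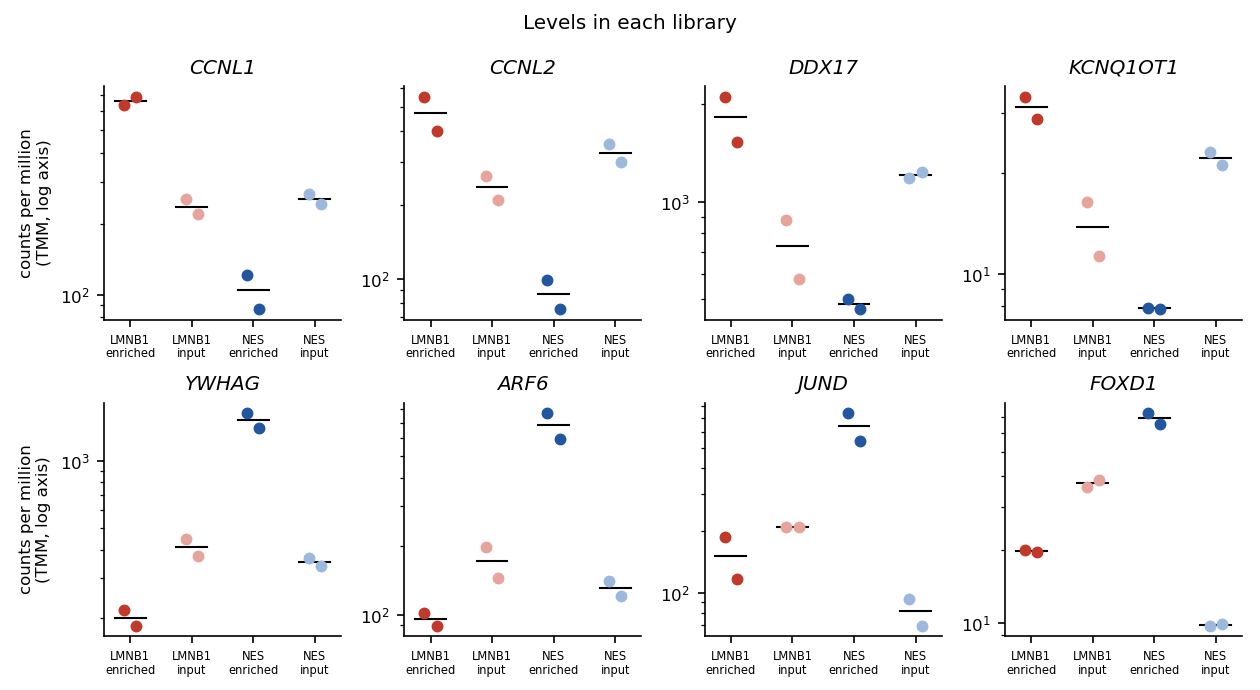
Points give the TMM-scaled CPM of 8 genes in each of the 8 libraries on a log axis, and lines give the mean of 2 libraries. In the upper row CCNL1, CCNL2, DDX17 and KCNQ1OT1 are highest in enriched LMNB1 and lowest in enriched NES libraries, and in the lower row YWHAG, ARF6, JUND and FOXD1 are highest in enriched NES libraries.

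Long non-coding RNAs known to stay in the nucleus also lay higher. Of 23 listed, 20 were tested, and 8 were higher and 1 lower (median 1.00). KCNQ1OT1, which silences its neighbours on the imprinted paternal copy, had 33.7 and 28.9 CPM against 16.3 and 11.3 CPM for LMNB1, and 7.92 and 7.83 CPM against 23 and 21.1 CPM for NES (difference 2.67 ± 0.37, edgeR adjusted p = 0.00023). It lies within KCNQ1 on the other strand, and whether the counting used strand is not given in the sources used here. MIR17HG, the host transcript of a cluster of microRNAs, differed by 2.58 ± 0.48, and MIR29B2CHG, another microRNA host, by 3.13 ± 0.67. The 3 markers used for the nucleus, KCNQ1OT1, NEAT1 and MALAT1, were all higher. NEAT1, the backbone of paraspeckles, had 141 and 225 CPM against 73.2 and 110 CPM for LMNB1, and 66.2 and 58.9 CPM against 209 and 165 CPM for NES (2.57 ± 0.35). MALAT1, a speckle RNA, had 265 and 689 CPM against 195 and 177 CPM for LMNB1, and 88.3 and 163 CPM against 251 and 186 CPM for NES (2.16 ± 0.56, edgeR adjusted p = 0.012). Its 2 enriched LMNB1 libraries differ more than 2-fold. In the cytosol MALAT1 lay at -0.80 and did not pass the test. OIP5-AS1, chosen after its values were seen, was the 1 lower RNA (-0.78 ± 0.23), with enrichment in the cytosol (0.92). No RNA of the list was lower with total counts or without any 1 NES library. On unlabelled beads of the LMNB1 construct 5 of the 20 rose (2.58% of all genes did), NEAT1 by 1.47. MIR29B2CHG rose there by 2.87, against 1.70 at the lamina with s6G, while KCNQ1OT1 and MIR17HG had no call on these beads. The part of this bead signal in the result was not tested.

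Hosts of small nucleolar RNAs, which carry those RNAs in their introns, were higher in 10 and lower in 1 of 22 tested cases (23 listed, median 0.96). SNHG25 differed most (3.47 ± 1.14), at 3.12 CPM or less in every library. SNHG12 had 88.8 and 39.8 CPM against 34.7 and 14.2 CPM for LMNB1, and 17.5 and 10.5 CPM against 17.5 and 18 CPM for NES (1.75 ± 0.63, edgeR adjusted p = 0.049), and ZFAS1 differed by 1.72 ± 0.49. SNHG25, SNHG12 and ZFAS1 lost their calls in several of the fits without 1 library, and 4 hosts were higher without NES input 2. Without enriched NES library 2 or enriched LMNB1 library 1 there were 5, and without NES input 1 or LMNB1 input 2 there were 6. On unlabelled LMNB1 beads 7 of the 22 rose (2.58% of all genes did), with a list median of 0.74. ZFAS1 rose there by 1.29, against 1.09 at the lamina with s6G, while SNHG25 and SNHG12 had no call on these beads. The part of the bead signal in the result was not tested.

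Among the 12 genes with the largest difference in favour of the lamina, at a mean log2 CPM of at least 4, all rose at the lamina and all fell in the cytosol. Their differences ran from 2.95 to 3.93. In 2 of the 12, RP6-24A23.8 (-0.91) and TSIX (-1.39), the LMNB1 inputs were called below the NES inputs, against 0.333% of all tested genes. The highest was RP6-24A23.8 (ENSG00000280322), an RNA with no current symbol, with 205 and 225 CPM against 90.3 and 123 CPM for LMNB1, and 27.2 and 25.5 CPM against 187 and 212 CPM for NES. Of the 12, 9 overlap another RefSeq gene. EIF4A1, an RNA helicase of translation initiation (3.78 ± 0.33), shares its locus with the readthrough gene SENP3-EIF4A1, RPL36A (3.76 ± 0.35) with RPL36A-HNRNPH2 and NME2 (3.71 ± 0.56) with NME1-NME2, so how their reads were shared out is uncertain. STAG3L5P and PILRB lie in 1 readthrough unit, and TSIX lies antisense to another non-coding RNA. The pseudogenes MSTO2P and AHSA2P (3.02 and 3.01), NPIPB5 of a family of near-identical copies (2.95), ENSG00000261505 (3.55) and MAPK13, a stress kinase (3.72 ± 0.48), complete the 12. The origin of reads is uncertain for each overlapping or copied gene among them.

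Genes lower at the lamina included many that respond quickly to signals. Immediate-early genes, which respond first to a stimulus and code for unstable mRNAs, were lower in 22 and higher in none of 40 tested cases (46 listed), with a median difference of -1.53. In the cytosol 33 of 40 rose and none fell, while at the lamina 4 rose and 1 fell. Their summed level was 3100 and 2762 CPM in enriched LMNB1 libraries against 2702 and 2587 CPM in inputs, and 17868 and 11962 CPM in enriched NES libraries against 3045 and 2426 CPM in inputs. In the enriched NES libraries JUN accounts for most of that sum. JUN, a subunit of the transcription factor AP-1 and named here after its values were seen, had 1380 and 1242 CPM against 941 and 991 CPM for LMNB1, and 11973 and 6967 CPM against 1734 and 1130 CPM for NES (-2.28 ± 0.40, edgeR adjusted p = 0.00095).

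JUND, a relative of JUN, had 186 and 116 CPM in enriched LMNB1 libraries against 207 and 207 CPM in inputs, and 738 and 540 CPM in enriched NES libraries against 93.9 and 69.3 CPM in inputs. The enriched NES libraries were above all others, and the LMNB1 inputs were above the NES inputs (input difference 1.35, edgeR adjusted p = 0.022). The difference of enrichments was -3.43 ± 0.35 (edgeR adjusted p = 5.5e-05). DUSP4 (-3.75 ± 1.24) and DUSP5 (-2.64 ± 0.84), phosphatases of MAP kinases, were at 9.11 CPM or less in every library and lost their calls without single libraries. FOS lay at -0.11 ± 0.53 and EGR1 at -0.60 ± 0.46, both uncalled for the difference, and FOS rose in both constructs (1.46 at the lamina, 1.57 in the cytosol).

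RefSeq promoter windows (250 bases before to 50 after the start, GRCh38.p14) were found for 15 of the 22 lower immediate-early genes. Windows matched 11030 of the 15632 tested genes, which is too few to compare shares between gene groups, so that check is void. The shares that follow are given without comparison. The CArG box, core of the serum response element, was in 1 of the 15 windows and in 0.98% of 11029 windows. The AP-1 site was in 1 of the 15 and in 2.65% of 11029. The cyclic AMP response element TGACGTCA (the same on both strands) was in 3 of the 15 windows and in 3.33% of 11029 windows. These 3 are shown as members that moved together and hold this motif, which is in capitals, each read along the gene: JUND on the minus strand (chr19:18281573-18281872), DUSP1 on the minus strand (chr5:172771146-172771445) and PPP1R15A on the plus strand (chr19:48872171-48872470).
JUND: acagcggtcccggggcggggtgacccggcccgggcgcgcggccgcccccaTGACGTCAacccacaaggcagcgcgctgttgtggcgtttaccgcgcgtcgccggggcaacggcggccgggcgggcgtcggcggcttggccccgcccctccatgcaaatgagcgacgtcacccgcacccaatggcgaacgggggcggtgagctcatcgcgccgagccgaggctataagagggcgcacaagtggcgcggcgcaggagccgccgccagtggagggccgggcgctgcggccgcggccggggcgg
DUSP1: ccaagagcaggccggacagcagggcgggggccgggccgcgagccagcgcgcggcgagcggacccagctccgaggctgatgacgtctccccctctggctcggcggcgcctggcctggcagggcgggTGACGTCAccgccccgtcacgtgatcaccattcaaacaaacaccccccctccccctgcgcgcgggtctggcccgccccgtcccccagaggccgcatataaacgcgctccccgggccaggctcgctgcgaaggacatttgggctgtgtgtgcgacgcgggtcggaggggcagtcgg
PPP1R15A: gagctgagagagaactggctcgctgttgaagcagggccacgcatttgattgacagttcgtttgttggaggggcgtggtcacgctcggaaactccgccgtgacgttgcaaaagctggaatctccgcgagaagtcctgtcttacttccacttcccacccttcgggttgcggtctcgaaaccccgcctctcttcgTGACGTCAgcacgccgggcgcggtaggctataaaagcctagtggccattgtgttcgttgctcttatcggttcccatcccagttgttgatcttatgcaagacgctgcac
DUSP1, a MAP kinase phosphatase, had 37.0 and 40.7 CPM against 48.7 and 43.8 CPM for LMNB1, and 174 and 103 CPM against 42.4 and 24 CPM for NES (-2.31 ± 0.40). PPP1R15A, which restores translation after stress, had 52.4 and 43.3 CPM against 50.5 and 38 CPM for LMNB1, and 107 and 122 CPM against 32.4 and 46.1 CPM for NES (-1.43 ± 0.31). For all 3 genes the enriched NES libraries stood apart and the LMNB1 enriched libraries lay near or below their inputs.

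Short-lived developmental factors also lay lower, with 25 of 36 tested genes lower and none higher (38 listed, median -1.97). FOXD1, a forkhead transcription factor, had 19.9 and 19.6 CPM against 36.0 and 38.7 CPM for LMNB1, and 72.3 and 65.3 CPM against 9.78 and 9.98 CPM for NES (-3.71 ± 0.29, edgeR adjusted p = 3.8e-05). Its inputs differed by 1.92 (adjusted p = 0.0008). SOX9 had 6.48 and 8.02 CPM against 10.7 and 22.4 CPM for LMNB1, and 676 and 536 CPM against 168 and 145 CPM for NES (-3.15 ± 0.39). Here the inputs differed the other way, by -3.22 (edgeR adjusted p = 0.00016). MSX1, a homeobox factor, differed by -2.75 ± 0.32 with no call between inputs.

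The 12 genes with the lowest difference ran from -5.21 to -3.18. All 12 rose in the cytosol and 9 fell at the lamina. In 6 of the 12 the LMNB1 inputs were called above the NES inputs, against 0.908% of all tested genes, and the part of the inputs in these differences was not tested. PDXP, a phosphatase of vitamin B6, is the lowest, with 22.6 and 14.2 CPM against 43.1 and 51.8 CPM for LMNB1, and 67.7 and 65.3 CPM against 4.48 and 4.80 CPM for NES (-5.21 ± 0.37). The inputs of PDXP were 3.35 apart on the log2 scale (edgeR adjusted p = 0.00012), with LMNB1 above NES. ARF6, a GTPase of membrane recycling, had inputs that were not called (0.38), with 102 and 89.5 CPM against 199 and 145 CPM for LMNB1, and 770 and 594 CPM against 141 and 122 CPM for NES (-3.22 ± 0.29, edgeR adjusted p = 3.8e-05). KCTD12 (-3.49 ± 0.43), TLNRD1 (-3.51 ± 0.29), CDC42EP4 (-3.18 ± 0.41) and ABHD17C (-3.22 ± 0.37) had no call between inputs either, while HMX1, MEX3D and FADD had one (1.77, 1.43 and 1.68).

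Exon structures were not read here. Some of the lower genes, such as FOXD1, JUND and KCTD12, are known to lack introns in the coding region. A list of 46 such genes was written after the values were seen, and it supports nothing by itself. Its name refers to the coding region only. Of its 40 tested members 32 were lower and none higher, with a median of -2.1 and a range from -3.71 to -0.32. In the cytosol 36 rose, and at the lamina 4 rose and 5 fell. Besides FOXD1, JUND and JUN, it holds HNRNPA0, an RNA-binding protein of the nucleus, with 462 and 368 CPM against 538 and 509 CPM for LMNB1, and 1731 and 1553 CPM against 516 and 469 CPM for NES (-2.08 ± 0.26). SOX4, named after its values were seen, had 364 and 415 CPM against 229 and 331 CPM for LMNB1, and 1596 and 1037 CPM against 255 and 173 CPM for NES (-2.15 ± 0.37). TAF7, a subunit of a general transcription factor, was at the other end (-0.32) and was not called.

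Genes of KRAB zinc finger proteins, many of them repressors of transposable elements, were lower in 65 and higher in 4 of 124 tested cases (144 listed, median -1.21). In the cytosol 99 rose and none fell, and at the lamina 29 rose and none fell (median 0.44). ZNF254 had 10.7 and 8.58 CPM against 16.3 and 11.1 CPM for LMNB1, and 45.6 and 38 CPM against 8.96 and 9.02 CPM for NES (-2.72 ± 0.39). ZNF460 differed by -2.60 ± 0.41, and ZNF91 by -3.57 ± 1.14 at 4.98 CPM or less. Replication-dependent histone genes, whose main mRNAs end without a poly(A) tail, were lower in 7 of 20 tested cases (27 listed, median -1.09), in 11 with the replicate block and in 4 in the fit of 24 libraries. H1-4, of a linker histone, had 5.86 and 16.6 CPM against 3.06 and 3.29 CPM for LMNB1, and 63.6 and 227 CPM against 2.85 and 1.92 CPM for NES. H1-4 lost its call without either LMNB1 input, without enriched LMNB1 library 1, with no expression filter and in the fit of 24 libraries, and it rose by 5.59 on unlabelled LMNB1 beads (edgeR adjusted p = 0.03), where 4 of the 20 histone genes rose. H2AC20 (-3.66 ± 0.72) rose there too, by 3.33. Of all genes 2.58% rose on these beads.

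**Figure D3:**
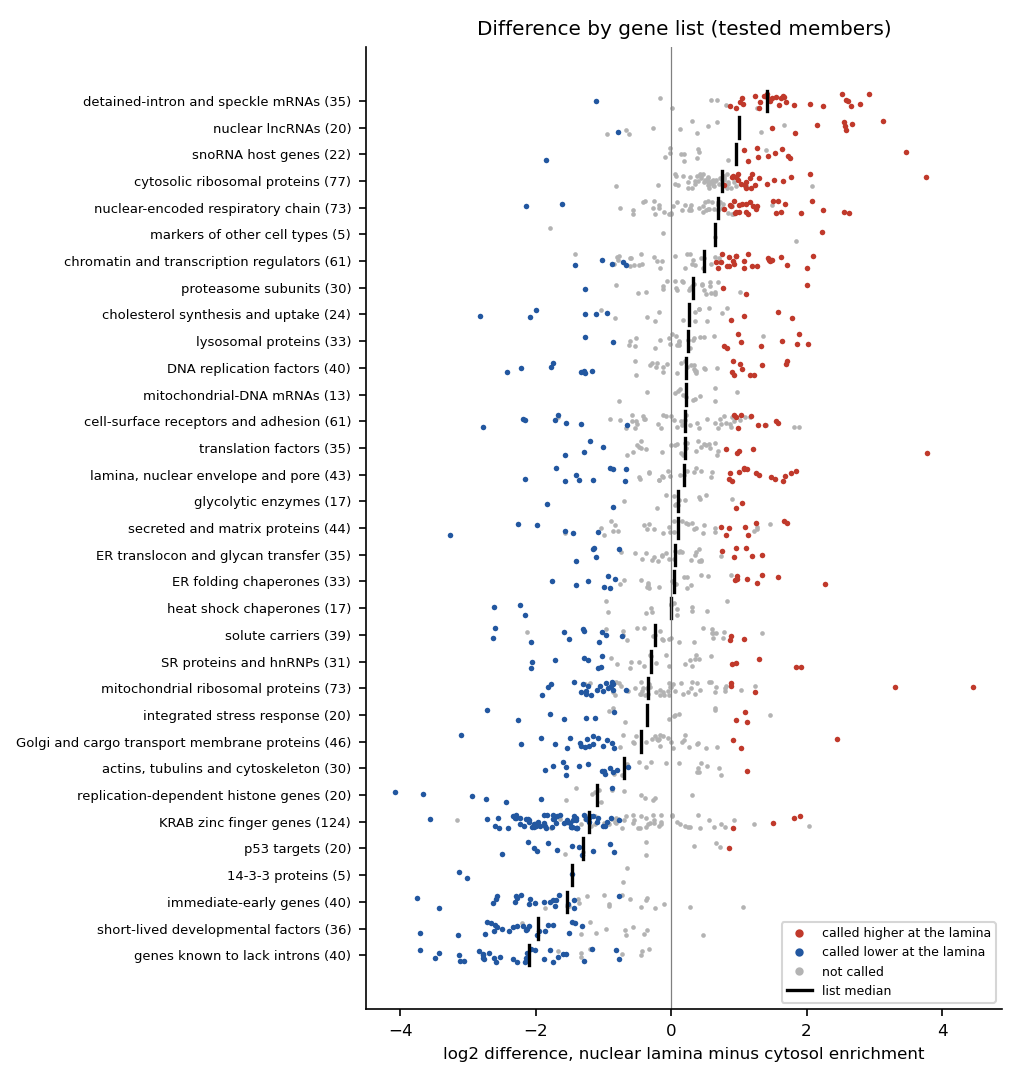
Each point is a tested member of a gene list, placed by its log2 difference (nuclear lamina minus cytosol enrichment) and coloured by its call, and bars give list medians. Lists with at least 5 tested members are shown, from detained-intron and speckle mRNAs at the top (1.41) to genes known to lack introns at the bottom (-2.1).

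Targets of p53, which acts on DNA damage, lay lower. Of 20 p53 targets 12 were lower and 1 higher (median -1.31), and in the cytosol 12 rose and 3 fell. CDKN1A, the cell-cycle inhibitor p21, had 32.9 and 29.5 CPM against 55.1 and 54.1 CPM for LMNB1, and 127 and 134 CPM against 48.3 and 57.6 CPM for NES (-2.11 ± 0.25). GADD45A, a DNA-damage gene, differed by -2.02 ± 0.23 and lay at 0.06 at the lamina, and ZMAT3 differed by -2.51 ± 0.31. Genes of the integrated stress response were lower in 7 and higher in 3 of 20 tested cases (median -0.36). With total counts 6 were lower and 4 higher (median -0.12). Without 1 library the median ran from -0.76 to -0.06, so this list is given no direction. Of all tested genes 19.6% were lower and 16.5% higher. Among the lower members was DDIT4, an inhibitor of mTOR. It had 97.0 and 80.4 CPM against 93.1 and 82.9 CPM for LMNB1, and 592 and 790 CPM against 114 and 171 CPM for NES. TRIB3 (-2.71 ± 0.43) and CEBPG (-1.79 ± 0.41) were lower too. Heat shock chaperones as a list did not stand apart, with 3 of 17 lower (17.6%, against 19.6% of all tested genes), none higher and a median of 0.0025. The 3 were DNAJB1 (-2.62 ± 0.31), BAG3 (-2.24 ± 0.34) and HSPA8 (-2.16 ± 0.50).

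The 14-3-3 proteins, adaptors that bind phosphorylated proteins in the cytoplasm, were listed after their values were seen. Of 5 tested, 3 were lower. YWHAG had 217 and 184 CPM against 449 and 377 CPM for LMNB1, and 1624 and 1399 CPM against 371 and 341 CPM for NES (-3.13 ± 0.26, edgeR adjusted p = 3.8e-05). YWHAH followed at -3.02 ± 0.26. YWHAZ fell in both constructs, more so at the lamina (-2.03) than in the cytosol (-0.56).

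Many housekeeping mRNAs were depleted by both constructs, to different extents. Cytosolic ribosomal protein genes fell in 76 of 77 tested cases in the cytosol (79 listed) and in 37 at the lamina, where 1 rose. The difference was higher at the lamina in 21 and lower in none (median 0.74), in 57 and 1 with the replicate block and in 52 and 0 with total counts. Their summed level was 72025 and 43829 CPM in enriched LMNB1 libraries against 103091 and 88152 CPM in inputs, and 37650 and 39949 CPM in enriched NES libraries against 86841 and 101056 CPM in inputs. Enriched LMNB1 library 1 lay well above library 2, and both lay above the enriched NES libraries. The median was 0.30 without enriched LMNB1 library 1, and 66 genes were higher without enriched LMNB1 library 2. Without any 1 NES library, or without LMNB1 input 2, 7 or 8 genes were higher. The 3 named members, RPL36A, RPS10 (2.05 ± 0.45) and RPL17 (1.77 ± 0.49), each share a locus with a readthrough gene, and the 74 other genes had a median of 0.71 with 18 higher. On unlabelled LMNB1 beads 22 of 77 rose (2.58% of all genes did), with a median of 0.67, and the part of that signal was not tested.

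Nuclear-encoded genes of the respiratory chain were higher in 26 and lower in 2 of 73 tested cases (75 listed, median 0.70), and in 46 and 4 with the replicate block. ATP5ME, a subunit of the ATP synthase, had 53.5 and 36.2 CPM against 19.9 and 24.7 CPM for LMNB1, and 8.30 and 9.11 CPM against 29.1 and 24.8 CPM for NES (2.63 ± 0.36, edgeR adjusted p = 0.00022). NDUFS7 of complex I differed by 2.25 ± 0.35, and NDUFV2 of the same complex by 2.56 ± 0.92 at 4.49 CPM or less. The median was 0.25 without enriched LMNB1 library 1, where 16 genes were higher, and 48 were higher without enriched LMNB1 library 2. Without any 1 NES library, or without LMNB1 input 2, 9 to 13 were higher, and 18 were in the fit of 24 libraries. On unlabelled beads 22 of 73 rose (2.58% of all genes did). ATP5ME rose there by 1.71, against 1.00 at the lamina with s6G, while NDUFS7 was lower on these beads (-1.71). The part of the bead signal in the result was not tested. Mitochondrial ribosomal proteins had 20 lower and 5 higher of 73 (34 and 13 with the block, median -0.35). In all 34.2% of them were called, against 36.1% of all tested genes, of which 19.6% were lower and 16.5% higher. With total counts 15 were lower and 13 higher (median -0.12), so this list is given no direction. Without enriched LMNB1 library 1, 36 were lower (median -0.65), and without enriched LMNB1 library 2 the median was -0.04. Without enriched NES library 1, enriched NES library 2 or NES input 2, 12 or 13 were lower. MRPL44 differed by -1.91 ± 0.31, MRPL49 by -1.81 ± 0.24 and MRPS30 by -1.77 ± 0.25.

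The 13 mRNAs of mitochondrial DNA, made and kept in the matrix behind 2 membranes, fell in both constructs, 12 at the lamina and 11 in the cytosol. None was called in the difference (median 0.22, range -0.77 to 0.98), and 4 higher and 1 lower were called with the replicate block. MT-CO1 of complex IV had 2148 and 2424 CPM against 9312 and 13591 CPM for LMNB1, and 2488 and 2365 CPM against 14198 and 14069 CPM for NES, and its difference was 0.22 ± 0.34 (edgeR adjusted p = 0.65). Its enriched libraries overlapped between the constructs, and both LMNB1 inputs lay below the NES inputs. The rRNAs MT-RNR1 and MT-RNR2 fell in both constructs and differed by 0.54 and 0.56, each uncalled, and both rose on unlabelled LMNB1 beads (2.37 and 1.23). With the replicate block both rRNAs were called higher (0.57 each). Mitochondrial DNA gave 1.66% and 2.18% of counts in enriched LMNB1 libraries against 4.13% and 6.37% in inputs, and 1.84% and 1.80% in enriched NES libraries against 6.79% and 6.25% in inputs. With 2 libraries a group no exact test of these shares can reach 0.05.

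Glycolytic enzymes also fell in both constructs (13 and 15 of 17), with 2 higher and 2 lower in the difference. In the difference 23.5% of this list were called, against 36.1% of all tested genes. PGAM1 stood out with 233 and 208 CPM against 737 and 786 CPM for LMNB1, and 764 and 773 CPM against 754 and 739 CPM for NES (-1.83 ± 0.24, edgeR adjusted p = 0.00016). It fell at the lamina and was not called in the cytosol. PFKL and PFKM, phosphofructokinases, were the higher pair (1.05 ± 0.24 and 0.96 ± 0.25). Cytoskeletal genes were lower in 14 and higher in 1 of 30 cases (9 and 4 with total counts, median -0.69), and 8 were lower without enriched NES library 1 or NES input 2. TUBA1A, an alpha tubulin, had 28.4 and 28.3 CPM against 115 and 119 CPM for LMNB1, and 84.7 and 87.8 CPM against 91.5 and 105 CPM for NES (-1.86 ± 0.23), and its near-copy TUBA1C differed by -1.75 ± 0.24. TUBB2B, a beta tubulin, differed by -1.59 ± 0.30. ACTB, beta actin, named after its values were seen, fell by 2.33 at the lamina and by 0.78 in the cytosol.

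Genes of the lamina, nuclear envelope and pore were split, with 15 higher and 10 lower of 43 (18 and 7 with total counts, median 0.19). Of all tested genes 36.1% were called, against 58.1% of this list. The 3 with the largest positive difference were nucleoporins. TPR, of the nuclear basket, had 575 and 693 CPM against 320 and 373 CPM for LMNB1, and 311 and 274 CPM against 598 and 551 CPM for NES (1.85 ± 0.25, edgeR adjusted p = 0.00022). NUP85 (1.77 ± 0.25) and NUP107 (1.69 ± 0.26), of the pore's outer ring, were higher too. Among the lower ones, named after their values were seen, TMPO, a lamin-binding membrane protein, differed by -2.15 ± 0.23 and LBR, the lamin B receptor, by -0.90 ± 0.22. SR proteins and hnRNPs were split as well, with 5 higher and 8 lower of 31 (10 and 8 with total counts, 6 and 13 with the block), and 5 were lower without enriched NES library 1 or LMNB1 input 1. Of these 31 genes 41.9% were called, against 36.1% of all tested genes, and the list is given no direction. HNRNPF (-2.05 ± 0.26) and SRSF8 (-1.72 ± 0.28) were lower, while HNRNPH1 (1.92) and SRSF11 (1.84), named after their values were seen, were higher.

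Chromatin and transcription regulators were higher in 25 and lower in 5 of 61 cases (median 0.49), in 33 and 15 with the replicate block and in 30 and 1 with total counts. Without enriched NES library 1, either NES input or LMNB1 input 1, 14 to 16 were higher, and 11 were lower without enriched LMNB1 library 2. BRD9, a subunit of a chromatin remodelling complex, had 215 and 194 CPM against 86.2 and 79.6 CPM for LMNB1, and 54.8 and 47.6 CPM against 94.7 and 83.1 CPM for NES (2.1 ± 0.24, edgeR adjusted p = 7.6e-05). MED12 (2.00 ± 0.29) and MED23 (1.71 ± 0.27), subunits of Mediator, were higher, MED12 through a fall in the cytosol (-2.19). DNA replication factors are given no direction, with 10 higher and 8 lower of 40 (15 and 8 with total counts, median 0.22). Of all tested genes 16.5% were higher and 19.6% lower. The largest positive differences of the list were those of POLE, LIG1 and MCM3 at 1.71 ± 0.23, 1.70 ± 0.24 and 1.34 ± 0.23.

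Membrane and secretory genes showed no common direction. Of all tested genes 36.1% were called. The share was 45.7% of Golgi and cargo transport genes, 41.7% of cholesterol genes and 35.9% of solute carriers. Golgi and cargo transport genes were lower in 18 and higher in 3 of 46 (14 and 5 with total counts, median -0.44), with TMED7, a cargo receptor, at 15.8 and 14.6 CPM against 61.2 and 45.8 CPM for LMNB1, and 115 and 108 CPM against 46 and 45.1 CPM for NES (-3.11 ± 0.28). TMED7 also shares a locus with a readthrough gene. B4GALT5 (-2.22 ± 0.31) and FUT8 (-1.93 ± 0.39), glycosyltransferases, were lower. Cholesterol genes were split, with 6 lower and 4 higher of 24 (6 and 8 with total counts, 8 and 8 with the block) and a positive median of 0.27. INSIG1, which holds back sterol synthesis, had 97.2 and 62.7 CPM against 202 and 90.3 CPM for LMNB1, and 721 and 709 CPM against 170 and 199 CPM for NES (-2.82 ± 0.45). MSMO1 (-2.09 ± 0.26) and IDI1 (-2.00 ± 0.56), enzymes of the pathway, were lower too, while FDPS (1.79 ± 0.30) and LSS (1.58 ± 0.44), also enzymes of the pathway and named after their values were seen, were higher. Solute carriers were lower in 11 and higher in 3 of 39 (9 and 7 with total counts, 17 and 9 with the block), and 6 were lower without enriched NES library 1, with SLC30A1, a zinc exporter, at -2.64 ± 0.26, SLC2A1, a glucose transporter, at -2.07 ± 0.26 and SLC16A1 at -2.61 ± 0.71. Their list median was -0.24 with TMM and 0.00384 with total counts.

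Lysosomal genes were higher in 9 and lower in 2 of 33 (13 and 1 with total counts, median 0.24), and 3 to 5 were higher without any 1 NES library or LMNB1 input 1, with GUSB (2.02 ± 0.24), HEXA (1.88 ± 0.45) and CTSA (1.85 ± 0.30), enzymes of the lysosome, in front. Secreted and matrix proteins (8 higher and 6 lower of 44), the translocon and glycan transfer genes (6 and 5 of 35), folding chaperones of the endoplasmic reticulum (8 and 7 of 33), surface receptors (9 and 8 of 61; 23 and 14 with the block), translation factors (5 and 4 of 35; 11 and 8 with the block) and proteasome subunits (3 and 1 of 30; 14 and 3 with the block) had medians between 0.05 and 0.33. Total counts move the median of all genes by about as much, so these lists and the lysosomal list are given no direction. Higher and lower with total counts were 9 and 3 for secreted and matrix proteins, 12 and 3 for the translocon, 10 and 5 for folding chaperones, 11 and 6 for receptors, 12 and 4 for translation factors and 13 and 1 for the proteasome. Of their named members, LAMA3 and LAMB2, laminin chains, differed by 1.67 ± 0.49 and 1.26 ± 0.30, UGGT1, a folding sensor, by 1.58 ± 0.23, and PLXNA1 and PLXNA3, semaphorin receptors, by 1.39 ± 0.25 and 1.55 ± 0.25.

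The lists were also read in arms whose enriched libraries the difference did not use. Of 15620 genes, 9.4% were called in the LMNB1 APEX-only arm (5.25% higher and 4.15% lower), 7.37% in the unlabelled arm (2.58% and 4.79%) and 54.9% in the ERM construct (31.9% and 22.9%). In the LMNB1 APEX-only arm the detained-intron and speckle mRNAs had a median enrichment of 0.80 with 19 of 35 higher, against 0.22 with 2 of 35 higher without labelling. Nuclear lncRNAs had 1.18 and 8 of 20 higher in the APEX-only arm, against 0.65 and 5 of 20 without labelling. Genes known to lack introns lay at -0.07 in the APEX-only arm, and immediate-early genes at 0.31. In the ERM construct, whose APEX2 faces the cytosol, immediate-early genes rose in 29 of 40 cases, genes known to lack introns in 36 of 40 and KRAB zinc finger genes in 113 of 124. Differences between these arms were not tested. Of the lower genes, 2433 of 3066 were enriched in the ERM construct, which is 79.4% of the lower genes and 48.8% of the genes enriched there. Of the 2570 higher genes tested in that fit, 280 rose in the LMNB1 APEX-only arm (10.9% of them and 34.1% of the genes that rose there), and 119 rose on unlabelled beads (4.63% and 29.5%).

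**Figure D4:**
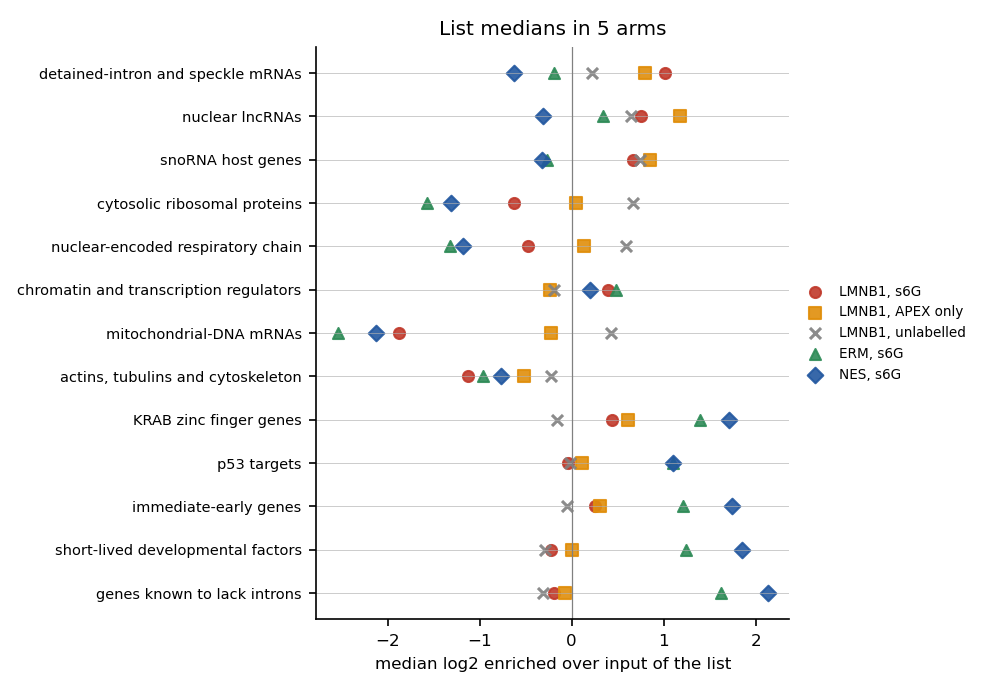
Each symbol is a list's median log2 enrichment over input in 1 of 5 arms, with the LMNB1 and ERM arms and the NES arm in the legend. For detained-intron mRNAs the LMNB1 arms with s6G and APEX only lie to the right (1.01 and 0.80) and NES to the left (-0.62), while for genes known to lack introns NES and ERM lie to the right (2.13 and 1.63) and the LMNB1 arms near 0.

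By RefSeq biotype, the 860 tested lncRNAs had a median difference of 0.63 with 20.9% higher and 3.95% lower, and the 12611 protein-coding genes had -0.17 with 15.1% and 23.2%. Transcribed pseudogenes (287) had 0.70 with 26.1% and 6.27%. Level was also uneven over the genes. Over 5 equal bins of mean CPM, the lowest bin had a median of 0.74 with 14.9% higher and 2.30% lower, and the highest bin -0.13 with 20.9% and 31.3%. The part of level in the biotype values was not tested. By length of the gene on the genome (14356 genes with a RefSeq span) the 5 bins had medians of 0.09, -0.04, -0.11, -0.11 and -0.20 from shortest to longest. Among nuclear chromosomes, the lowest medians were on chromosomes 8 (-0.56, with 31.7% of 477 genes lower), 18 (-0.34) and 6 (-0.33), and the highest on 16 (0.18) and 21 (0.14). Chromosome 19 lay at -0.08. Genes are not replicates, and these shares carry no test.

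**Figure D5:**
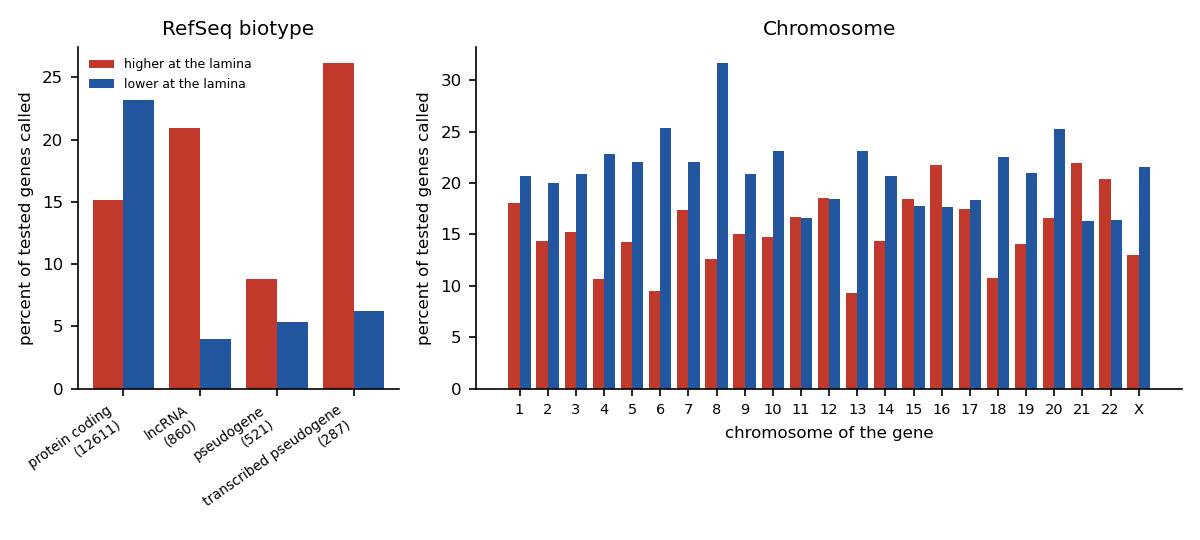
Bars give the percent of tested genes called higher (red) and lower (blue) at the nuclear lamina than in the cytosol, by RefSeq biotype with the number of genes on the left and by chromosome on the right, on axes that start at 0. Among lncRNAs 20.9% are higher and 3.95% lower, and chromosome 8 has the largest share of lower genes (31.7%).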

How the data were processed

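The authors deposited whole-number counts per gene for 57992 Ensembl gene IDs in 40 libraries, with no normalization, per the file headers and the values. Per the submitters' processing notes, HTSeq 0.7.2, HISAT2 2.1.0, deepTools 2.5.3, DESeq2 and SAMtools were used with GRCh38 (hg38). Which annotation was counted, and whether by strand, is not given in the sources used here. Libraries were made from about 300 ng of input RNA (11 PCR cycles) or from RNA enriched from 6.5 µg (15 cycles), per the labels' protocols, with an RNA quality number above 8. PCR reads are not independent molecules, so counting precision is lower than the totals would give.

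The 8 libraries were fitted in edgeR 4.0.16 (R 4.3.3) as 4 group means with the quasi-likelihood test (robust, TMM, filterByExpr with a minimum count of 10) and Benjamini-Hochberg adjustment over 15632 genes, called at 0.05, two-sided. The difference of enrichments was the interaction contrast. Errors are standard errors, with 2 libraries a group, which the series design calls biological replicates. Values of the APEX-only, unlabelled and ERM arms came from a fit of 24 libraries (15620 shared genes). The fit was tested on simulated data. It recovered 12% of 100 genes changed 2-fold and 63% of 100 genes changed 4-fold, and it called 0.0205% of the unchanged genes. In that test 200 of 15632 genes were changed, whereas 5638 were called in the data. The percents hold for that setting, and the matching rates for the 5638 calls were not tested. A missed call does not show equal enrichment.

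Symbols matched 56948 IDs, and coordinates and promoter windows are from RefSeq GRCh38.p14. The members, gene lists, tests and alternatives were chosen with earlier results of these data known, and 2 lists (genes known to lack introns, 14-3-3 proteins) were written after the values were seen. Named genes are the 12 highest and 12 lowest called differences at a mean log2 CPM of at least 4 without overlap of the pairs. The condition on overlap removed no called gene. Also named are up to 3 called members of each list with the largest difference in its main direction. Each enriched library and the input of the same number are 1 biological replicate per the series design, and their deviations from the group means correlated with r = 0.53 (LMNB1) and 0.19 (NES). Alternatives were RLE and total-count scaling, no filter, a minimum count of 50, the replicate block, fits of 16 and 24 libraries, DESeq2 1.42.0 and leaving out each library. Exon number and spliced length were not analysed here, and some single-gene results are not reported here. The construct and any batch of culture or sequencing cannot be told apart, beyond what each construct's own input takes out. The authors' deposited tables of log2 fold changes and TPM were not used here.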

Additional observations from a re-analysis of the deposited data

Results flagged for a closer look

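The interaction test of edgeR called 5638 genes whose enrichment differed between the LMNB1 and NES constructs, at an adjusted p under 0.05. Among them, 486 rose at the lamina and fell in the cytosol, as CCNL1, NEAT1 and TPR did, and 420 fell at the lamina and rose in the cytosol, as ARF6, YWHAG and FOXD1 did. These opposite calls within 1 fit are what set them apart. The 486 and 420 were counted with TMM scaling only. Calls at the lamina depended on scaling, with 2366 higher and 3025 lower under TMM and 4382 and 1758 under total counts. Both sets are given as values, with no explanation.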

How the results depend on the processing

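The counts of called genes for the difference, the lamina enrichment and the cytosol enrichment stayed within 1.5 times under RLE and total-count scaling, both filters, the fits of 16 and 24 libraries and DESeq2. With the replicate block 8586 genes were called for the difference and 8648 for the lamina. Leaving out 1 library gave 3744 (without NES input 1) to 6291 for the difference, 3502 (without LMNB1 input 2) to 5414 for the lamina and 5564 to 8634 for the cytosol. A group with 1 library left is assumed to vary like the others. The input comparison (194 genes) was unstable, with 567 without an expression filter, 304 and 129 in fits of 16 and 24 libraries, 322 with DESeq2 and 17 (without NES input 2) to 569 (without enriched LMNB1 library 2) with 1 library left out. The solute carrier median changed sign under total counts (0.00384). Of the genes named by rule, NDUFV2, OST4, PSMC6 and TGFB2 lost their calls in 10 or more settings, SNHG25 in 7, DUSP4, H1-4, LAMA3, SNHG12, ZFAS1 and ZNF91 in 5 each, RPL17 in 4, DUSP5 and PFKM in 3 and IDI1 in 2, and without NES input 2 HEXA, PFKL and SLC16A1 did. No named gene with a call changed direction. LMNB1 and several mitochondrial RNAs, which had no call, changed sign in some fits without 1 library, and MT-CO3 did with DESeq2. So did the medians of the lists of DNA replication, folding chaperones, translocon, receptors, glycolysis, heat shock, nuclear envelope, mitochondrial mRNAs, secreted proteins and translation factors in fits without 1 library. The replicate block ended no call of a named gene and added calls for 7 mitochondrial RNAs. Over all named genes and alternatives, 122 values lost a call, 16 gained one and 1870 stayed on their side of the threshold, called or not. The cause of these changes was not tested. Limits: with 2 libraries a group, many moderate differences cannot be called, and enriched LMNB1 library 1 has a large part in the medians of ribosomal protein and respiratory chain genes.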

Other observations

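The 5 tested markers of other cell types summed to 23.9 and 30.2 CPM in enriched LMNB1 libraries against 39.0 and 80.6 CPM in inputs, and to 9.71 and 12.1 CPM in enriched NES libraries against 33.6 and 41.8 CPM in inputs. The mitochondrial ribosomal protein genes MRPL38 and MRPS24, chosen after their values were seen, lay far from their list, at 3.30 ± 0.55 and 4.46 ± 1.02 (edgeR adjusted p = 0.00068 and 0.0047), with MRPS24 at 2.86 CPM or less in every library.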
